A study of Drosophila melanogaster with 2 samples.

Results

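Genes of mitochondrial ribosomal proteins were taken as those whose symbol in the platform annotation starts with mRpL (large subunit) or mRpS (small subunit) and that had a value on both arrays. The rule found 63 genes, 43 of the large and 20 of the small subunit, of 8224 genes measured in all. The series holds 2 two-colour arrays, A and B, with swapped dyes, hybridised with RNA of whole Drosophila melanogaster embryos. Each array set hemocyte minus embryos, which the series describes as serpent (srp) mutants, against hemocyte plus embryos, which it describes as wild type. Array A carried hemocyte minus RNA in Cy3 and hemocyte plus RNA in Cy5, and array B carried the opposite. The channels of array A are labelled unwounded, and those of array B do not repeat the word. The sources used here do not give the srp allele, the age of the embryos, the number pooled or whether the arrays held separate RNA extracts, so p-values measure only the spread between these arrays.

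Mitochondrial ribosomes translate the few proteins encoded in mitochondrial DNA, all of them in flies subunits of the respiratory chain and the ATP synthase. Their own proteins are encoded in the nucleus, made on cytosolic ribosomes and imported. The small subunit binds the messenger RNA and reads its codons, and the large subunit joins the amino acids and releases the chain towards the inner membrane. Many of these proteins descend from bacterial ribosomal proteins, and others are found only in mitochondrial ribosomes. serpent encodes a GATA transcription factor needed for embryonic blood cells (hemocytes) and the fat body, so whole mutant embryos also differ in their mix of tissues.

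Values are log2 ratios of hemocyte minus over hemocyte plus, centred on each array's median, with ± as the SD of the 2 arrays. The sources used here do not name the numerator dye of the deposited ratios. If it was Cy3, 8 of the 11 measured plasmatocyte markers and 3 of the 5 crystal cell markers passed the test below 0 and none above it, with medians of -0.81 and -0.71, so that positive values then mean higher in hemocyte minus embryos. This is the likely reading, taken after the markers had been seen, and every sign below turns if Cy5 was the numerator. Positive values are therefore called the hemocyte minus side and negative values the hemocyte plus side. In whole embryos a change in RNA per cell and a change in the share of a cell type cannot be told apart. Muscle markers lay on the hemocyte minus side, with 8 of 9 past the test there, values from 0.35 to 1.32 and a median of 0.80. Of 6 fat body markers 1 passed on the hemocyte minus side and 4 on the hemocyte plus side, with a median of -0.83. The part of muscle or fat body RNA in the results below was not tested.

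The mitochondrial ribosomal protein genes lay close together, slightly to the hemocyte minus side. Their median log2 ratio was 0.25, a 1.19-fold difference, against 0.00 for all genes. The members' median was 0.21 on array A alone and 0.32 on array B alone. The mean ratio was above 0 for 60 of the 63 genes. Above 0 on both arrays were 53 of them (84.1%), against 34.4% of all genes, and only mRpL20 was below 0 on both. A mean above the upper quartile of all genes, 0.18, was found for 48 members (76.2%), where 25% of all genes lie by construction. The middle 50% of the members spanned 0.13, from 0.18 to 0.32, while that of all genes spanned 0.34, from -0.16 to 0.18. Between 0.1 and 0.4 lay 53 members (84.1%) and 23.7% of all genes. That band lies around the members' own median, so its larger share of members describes where they lie and is no test.

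Few of these genes passed on their own. The test was limma's against no difference, adjusted over all 8224 genes by Benjamini-Hochberg, at a threshold of 0.05. The test called 4 members on the hemocyte minus side and none on the hemocyte plus side. That is 6.35% of the members, against 13.4% of all genes on either side, 8.18% on the hemocyte minus side and 5.27% on the hemocyte plus side. The share of single calls was thus below that of all genes, and it gives no result about the family. The smallest difference called among all genes was 1.36-fold, or 0.44 in log2 ratio, and 5 members reached that size. Standard errors of the members after moderation lay between 0.11 and 0.17. At an unadjusted limma p under 0.05 were 24 members (38.1%), 23 of them on the hemocyte minus side. Of all 8224 genes 2264 (27.5%) were under it, 1261 of them on the hemocyte minus side.

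**Figure D1:**
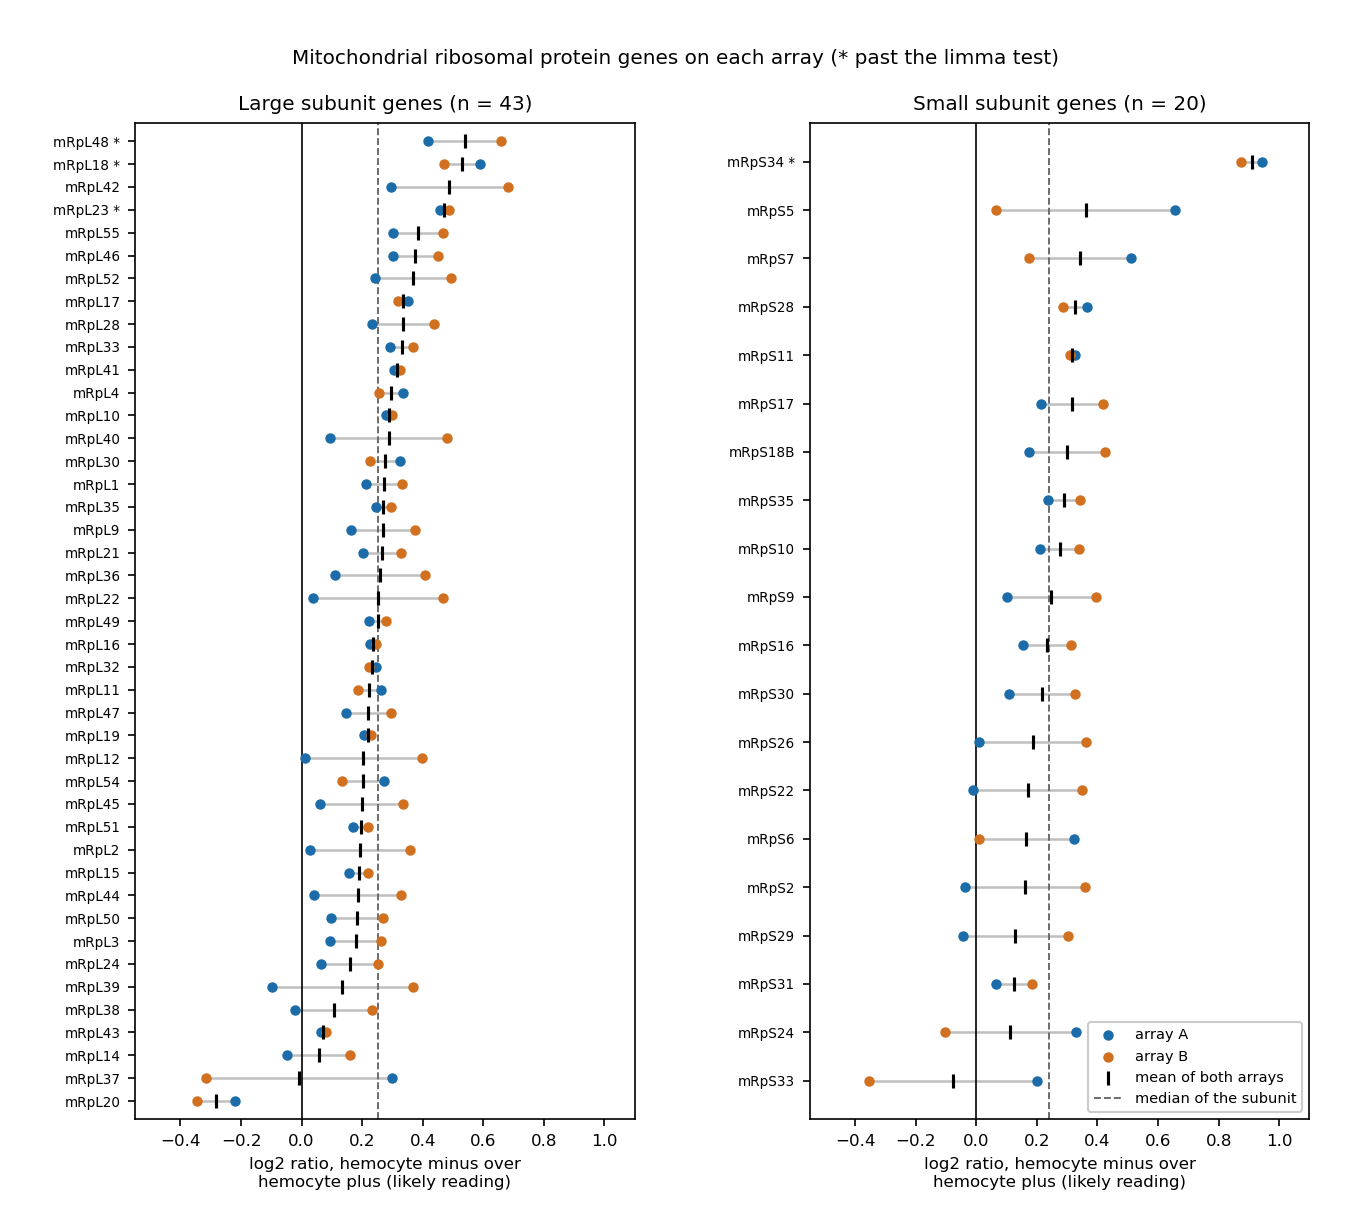
The plot of members by array shows the log2 ratio (x axis) of each of the 43 large subunit genes (left) and 20 small subunit genes (right) on array A (blue) and array B (orange), with the mean as a black bar, the subunit's median as a dashed line and an asterisk for the 4 genes past the limma test. Most genes sit between 0.1 and 0.4, mRpS34 stands apart at 0.91, and mRpL20 is the only gene left of 0 on both arrays.

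The member farthest from 0 was mRpS34, a small subunit protein found only in mitochondrial ribosomes and needed in mammals for a stable small subunit. Array A gave it a log2 ratio of 0.94 and array B one of 0.87. The mean of 0.91 ± 0.05, a 1.88-fold difference, passed limma (adjusted p = 0.00435). The gene had 2 probes, which lay at 0.80 and 1.02 in mean ratio, so both stood above every other member. They carry the same clone name, 1 of them marked as re-amplified, so they are not independent sequences. The unmarked probe had 0.60 on array B, below its value on array A, and the marked one 0.89 on array A and 1.15 on array B. They moved in opposite directions between the arrays and were 0.55 apart on array B, so the SD of 0.05 for their average is smaller than the spread of either probe. Without the marked probe the gene lay at 0.80 and still passed (limma adjusted p = 0.0219). The next gene of the small subunit, mRpS5, lay at 0.36.

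In the large subunit 3 genes passed. mRpL48 had a log2 ratio of 0.42 on array A and of 0.66 on array B, with a mean of 0.54 ± 0.17 (1.45-fold, limma adjusted p = 0.0349). mRpL18, whose bacterial relative binds the 5S ribosomal RNA, had 0.59 and 0.47, with a mean of 0.53 ± 0.08 (1.44-fold, limma adjusted p = 0.0295). mRpL23, whose bacterial relative lies at the mouth of the tunnel through which the new chain leaves, had 0.46 and 0.49, with a mean of 0.47 ± 0.02 (1.39-fold, limma adjusted p = 0.0402). All 3 were well above 0 on both arrays, and mRpL18 was higher on array A while mRpL48 was higher on array B. Each of these genes had 1 probe. None of them passed against a 1.2-fold difference instead of 0 (limma adjusted p = 0.266 for mRpL48, 0.244 for mRpL18 and 0.404 for mRpL23), where mRpS34 was the only member left.

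mRpL42, a protein without a bacterial counterpart, came next after mRpL18 by its mean, at 0.49 ± 0.27 and did not pass (limma adjusted p = 0.0691). Its ratios were 0.29 on array A and 0.68 on array B, and the wider spread sets it apart from mRpL23, which passed with a smaller mean. mRpL55 followed at 0.39 ± 0.12 (0.30 and 0.47 on arrays A and B). mRpL46 lay at 0.38 ± 0.11, mRpL52 at 0.37 ± 0.18, mRpL17 and mRpL28 at 0.34 and 0.33, and mRpL33 at 0.33. The last 3 did not differ from each other beyond their spread between arrays.

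Other large subunit genes with known roles lay lower than these. mRpL2 and mRpL3, which in bacteria help to form the peptidyl transferase centre, lay at 0.19 ± 0.23 and 0.18 ± 0.12. Both were near 0 on array A, at 0.03 and 0.09, and clearly above it on array B, at 0.36 and 0.26. mRpL10, mRpL11 and mRpL12 belong to the stalk and its base, where translation factors bind. They lay at 0.29 ± 0.01, 0.22 ± 0.05 and 0.20 ± 0.27. The stalk protein gene mRpL12 was at 0.01 on array A and 0.40 on array B, so its mean rests on array B. mRpL22 and mRpL24, which line the exit tunnel, lay at 0.25 ± 0.30 and 0.16 ± 0.13. mRpL45, related to proteins that hold the ribosome at the inner membrane, lay at 0.20 ± 0.19, and mRpL44, which has a ribonuclease fold, at 0.19 ± 0.20. None of these genes passed the test. Several others were nearly alike on the 2 arrays, among them mRpL41 (0.31 and 0.32 on arrays A and B), mRpL16 (0.23 and 0.25) and mRpL19 (0.21 and 0.23).

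The low end of the large subunit held mRpL20, mRpL37, mRpL14, mRpL43 and mRpL38. mRpL20, whose bacterial relative acts early in assembly of the subunit, lay below 0 on both arrays, at -0.22 (A) and -0.35 (B). With a mean of -0.28 ± 0.09 it was not past the test (limma adjusted p = 0.167). mRpL37 had opposite signs, at 0.30 on array A and -0.32 on array B, with a mean of -0.01 ± 0.43. Its arrays lay farther apart than those of any other member. mRpL14 had -0.05 and 0.16 (mean 0.06 ± 0.15) and mRpL38 had -0.02 and 0.23 (mean 0.11 ± 0.18), so both were just below 0 on array A and above it on array B. mRpL43 lay close to 0 on both arrays, at 0.06 and 0.08.

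In the small subunit, mRpS5 and mRpS7 followed mRpS34 but rested on array A. mRpS5, whose bacterial relative sits at the channel where the messenger RNA enters, had 0.65 on array A and 0.07 on array B (mean 0.36 ± 0.42). mRpS7 had 0.51 and 0.17 (mean 0.34 ± 0.24). mRpS28 had 0.37 and 0.28 (mean 0.33 ± 0.06), and mRpS11 had 0.32 and 0.31 (mean 0.32 ± 0.01), with both arrays close together for each. mRpS17 (0.32 ± 0.14), mRpS18B (0.30 ± 0.18), mRpS35 (0.29 ± 0.07) and mRpS10 (0.28 ± 0.09) came next, followed by mRpS9 (0.25 ± 0.21) and mRpS16 (0.23 ± 0.11). mRpS30 lay at 0.22 ± 0.15. Its mammalian counterpart is placed in the large subunit, so the symbol alone puts it among the small subunit genes here.

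The lower end of the small subunit was less even between arrays. mRpS33 had 0.20 on array A and -0.36 on array B, and its mean of -0.08 ± 0.39 was the only one of the subunit below 0. mRpS24, the counterpart of a bacterial protein at the channel where messenger RNA enters, had 0.33 and -0.10 (mean 0.11 ± 0.31). mRpS29, a GTP-binding protein known in mammals as death-associated protein, had -0.04 and 0.30 (mean 0.13 ± 0.25), and mRpS2 had -0.04 and 0.36 (mean 0.16 ± 0.28). mRpS22 lay at 0.17 ± 0.25, mRpS26 at 0.19 ± 0.25. mRpS31 had 0.06 and 0.18 (mean 0.12 ± 0.09). None of these genes passed, and neighbours in this order did not differ beyond their spread.

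The subunits had nearly equal medians. The median was 0.25 for the large subunit (1.19-fold) and 0.24 for the small subunit (1.18-fold). On array A alone the large subunit's median was 0.21 and the small subunit's 0.21. Array B alone put both at 0.32. Large minus small was 0.011 in the means, 0.0052 by array A alone and 0.00086 by array B alone, and no test was run over the members. The spread between arrays was wider in the small subunit. The median SD of the arrays was 0.10 for large subunit genes, 0.19 for small subunit genes and 0.12 for all genes. Opposite signs on the 2 arrays were found for 4 of 43 large subunit genes and 5 of 20 small subunit genes. Over all genes they were found for 2585 of 8224, a larger share than in either subunit. The 3 large subunit calls were 6.98% of that subunit, and the 1 small subunit call was 5%, all on the hemocyte minus side. Of all genes 13.4% were called on either side and 8.18% on the hemocyte minus side, so neither share is a result about its subunit.

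Split by the number in the symbol, 35 members carry numbers of bacterial ribosomal proteins (up to 36 in the large and 21 in the small subunit), and 28 carry higher numbers, most of which belong to proteins of mitochondria alone. mRpS24 and mRpS28 are examples of members with higher numbers although relatives exist in bacteria. The medians were 0.27 for bacterial numbers and 0.20 for higher numbers. Above 0 on both arrays were 32 of 35 and 21 of 28. Within the small subunit the medians were 0.29 for 10 genes with bacterial numbers and 0.18 for 10 with higher numbers, and within the large subunit 0.26 for 25 genes and 0.21 for 18. Over both subunits the order turned on array B, with medians of 0.31 for bacterial and 0.33 for higher numbers against 0.21 and 0.19 on array A. On array B it turned in the large subunit (0.30 and 0.33) and not in the small subunit (0.33 and 0.31). Each group held 2 of the 4 genes past the test, 5.71% of bacterial and 7.14% of higher numbers. Both shares were below the 8.18% of all genes called on the hemocyte minus side.

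**Figure D2:**
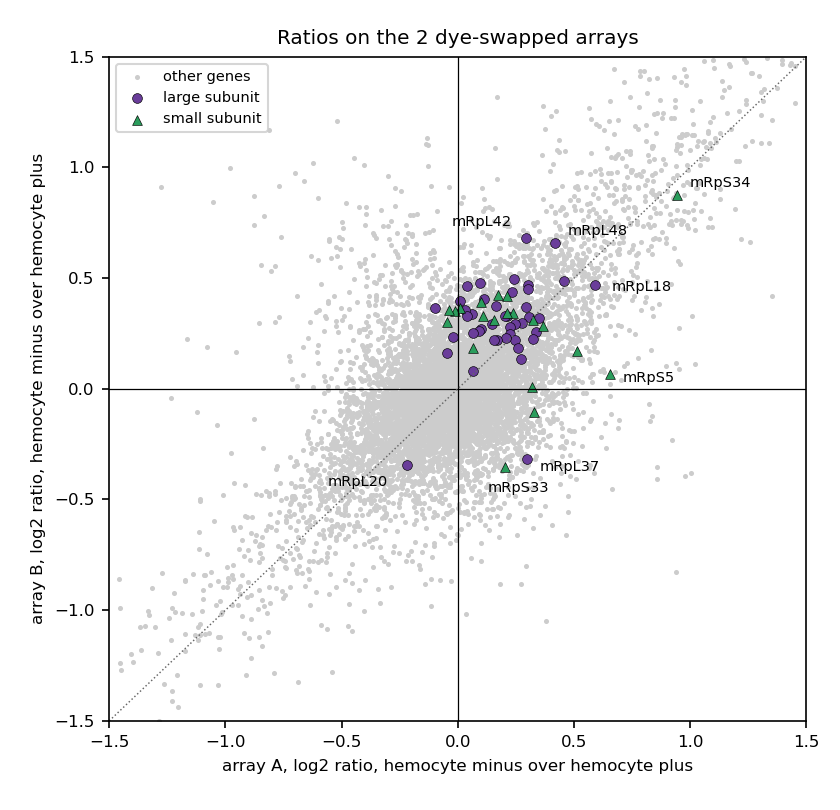
The plot of array B (y axis) against array A (x axis) gives the log2 ratio of each gene, with large subunit genes as purple circles, small subunit genes as green triangles and all other genes in grey. It leaves out 160 other genes beyond 1.5 on either axis. The members form a cloud above 0 on both axes, with no slope of its own apart from mRpS34 and mRpL20.

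The arrays shared little of the order of genes over the whole family. Over the 63 members the log2 ratios of arrays A and B had Pearson r = 0.25 and Spearman rho = 0.03, and without mRpS34 r was 0.09. By subunit, r was 0.36 and rho 0.22 over the 43 large subunit genes, and r was 0.16 and rho -0.27 over the 20 small subunit genes. Without mRpS34 the small subunit had r = -0.39 and rho = -0.48. Over all 8224 genes the same values were 0.75 and 0.56. The means of all genes had an SD of 0.43, against 0.16 for the members, so these correlations cover unlike ranges. These are correlations across genes of the same 2 arrays, so they describe and carry no p. Array B gave the higher ratio for 46 of the 63 members (73%), against 54.5% of all genes. The median distance between the arrays was 0.17 for the members and 0.17 for all genes.

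Probes of the same gene mostly had close means over the 2 arrays. Of 81 member probes with values on both arrays, 64 were above 0 on both, 16 had opposite signs and 1 was below 0 on both. The 18 genes with 2 probes had a median distance of 0.03 between their probes' means, against 0.08 for the 1093 genes with 2 probes in the whole table. In 15 of the 18 the distance was under 0.1. On single arrays the distances could be larger. The mRpS24 probes, a clone and its re-amplified copy, were 0.01 apart in the mean but 0.14 on array A and 0.16 on array B, and those of mRpL45 were 0.02 apart in the mean but 0.17 and 0.12. The distance of the means was widest for mRpS6, whose probes lay at 0.05 and 0.28, followed by distances of 0.22 for mRpS34 and 0.13 for mRpL9. For mRpS6 the distance came mostly from array B, where the probes were 0.61 apart. A further 3 probes carried a second symbol beside mRpL13, mRpL30 or mRpL53 and were left out. The gene table held 73 genes with these prefixes, and 10 of them (mRpL13, mRpL27, mRpL34, mRpL53, mRpS14, mRpS18A, mRpS18C, mRpS21, mRpS23 and mRpS25) were not analysed here.

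Genes of small subunit proteins that carry older names lay among the members. tko, the gene of mRpS12, is named for the mutant technical knockout, which reacts to mechanical shock with a seizure. It had 0.45 on array A and 0.19 on array B, with a mean of 0.32 ± 0.18. bonsai, the gene of mRpS15, had 0.09 and 0.29, with a mean of 0.19 ± 0.14. Neither passed (limma adjusted p = 0.15 and 0.359). Rlb1, listed with them although the gene table gives it no mitochondrial name, lay at 0.03 ± 0.06.

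Other genes of mitochondrial protein synthesis were also mostly above 0, with lower medians. All 7 measured translation factor genes had means above 0, from 0.09 to 0.32, with a median of 0.13, and none passed the test. The ribosome recycling factor gene mRRF1 was highest at 0.32 ± 0.02, and mEFTs, the exchange factor of elongation factor Tu, was lowest at 0.09 ± 0.11. mEFTu1, an elongation factor Tu that brings transfer RNAs to the ribosome, had -0.09 on array A and 0.35 on array B. Among 15 genes that charge mitochondrial transfer RNAs or belong to that set, 13 had means above 0 and none passed, with a median of 0.15. PheRS-m (0.33 ± 0.19) and ValRS-m (0.32 ± 0.15) were highest. AspRS-m was lowest at -0.39 ± 0.04, with -0.42 and -0.37 on arrays A and B (limma adjusted p = 0.0705), and was below 0 on both arrays together with TrpRS-m (-0.13 ± 0.08).

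Genes that make and process mitochondrial RNA stayed near the level of all genes. The 12 measured had a median of 0.03, with 7 above 0 and none past the test. TFAM, which packages mitochondrial DNA and helps to start its transcription, was highest at 0.28 ± 0.10. The mitochondrial RNA polymerase gene PolrMT lay at 0.01 ± 0.22, and scu, which encodes a subunit of mitochondrial ribonuclease P, was lowest at -0.25 ± 0.22. The replication genes PolG1 and mtDNA-helicase lay at -0.07 ± 0.17 and -0.16 ± 0.06. Of nuclear regulators tied to mitochondrial genes, ewg, the fly relative of mammalian NRF-1, lay at -0.11 ± 0.04, the transcriptional co-regulator gene Hcf at -0.19 ± 0.23 and Ets97D, a relative of GABP alpha, at -0.26 ± 0.10. All 3 were below 0 on both arrays and none passed.

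**Figure D3:**
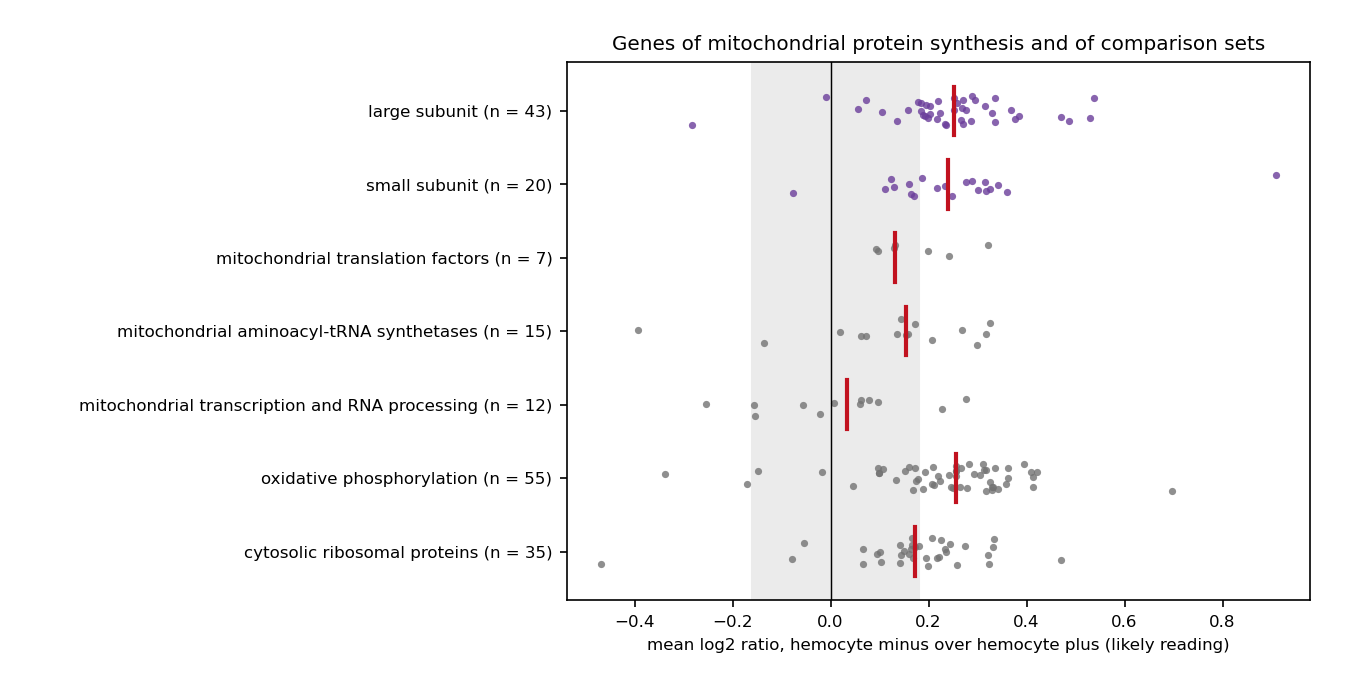
The plot of gene sets gives the mean log2 ratio of each gene (points, spread vertically at random within a row) in 7 sets, with each set's median as a red bar and the middle 50% of all genes as the grey band from -0.16 to 0.18. The bars of both subunits and of oxidative phosphorylation lie right of the band. Those of the other sets lie within it, from 0.03 for mitochondrial transcription and RNA processing to 0.17 for cytosolic ribosomal proteins.

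The members were set beside the genes of the respiratory chain and ATP synthase and beside those of cytosolic ribosomal proteins, in the same fit and with no test between sets. The 55 oxidative phosphorylation genes (symbols starting with ND-, Sdh, UQCR-, COX or ATPsyn, copies included) had a median of 0.26, with 43 above 0 on both arrays (78.2%) and 1 past the test on the hemocyte minus side. The members' median minus theirs was -0.0086, at 0.07 and -0.05 on arrays A and B. The 35 cytosolic ribosomal protein genes (symbols starting with RpL or RpS, copies and genes named -like included) had a median of 0.17. Of them 23 were above 0 on both arrays (65.7%) and none passed the test. The members' median minus theirs was 0.08, at 0.09 and 0.04 on arrays A and B. Array B gave the higher ratio for 47 of 55 oxidative phosphorylation genes and 26 of 35 cytosolic ribosomal protein genes, as it did for most members. The mitochondrial ribosomal protein genes were thus not alone at this level in these arrays.

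The genes next to the members in the genome had a median near that of all genes. In the gene order of the Release 6 assembly, the protein-coding genes directly before and after each member were taken, and 90 of them were measured, none of which is a member. Their median was -0.01, with 29 above 0 on both arrays (32.2%) and 30 below 0 on both. Above the upper quartile of all genes were 12 of the 90 (13.3%), against 48 of the 63 members. Of these neighbours 7.78% passed limma, against 13.4% of all genes, with 4 on the hemocyte minus side and 3 on the hemocyte plus side. The neighbour of mRpL23, CG8993, was among them at 0.47 (0.41 and 0.52 on arrays A and B, limma adjusted p = 0.0443), close to mRpL23 itself, and whether their probes overlap was not examined. The measured neighbours of mRpS34, mRpL18 and mRpL48 did not pass. Golgin104, next to mRpS34, lay at -0.02.

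**Figure D4:**
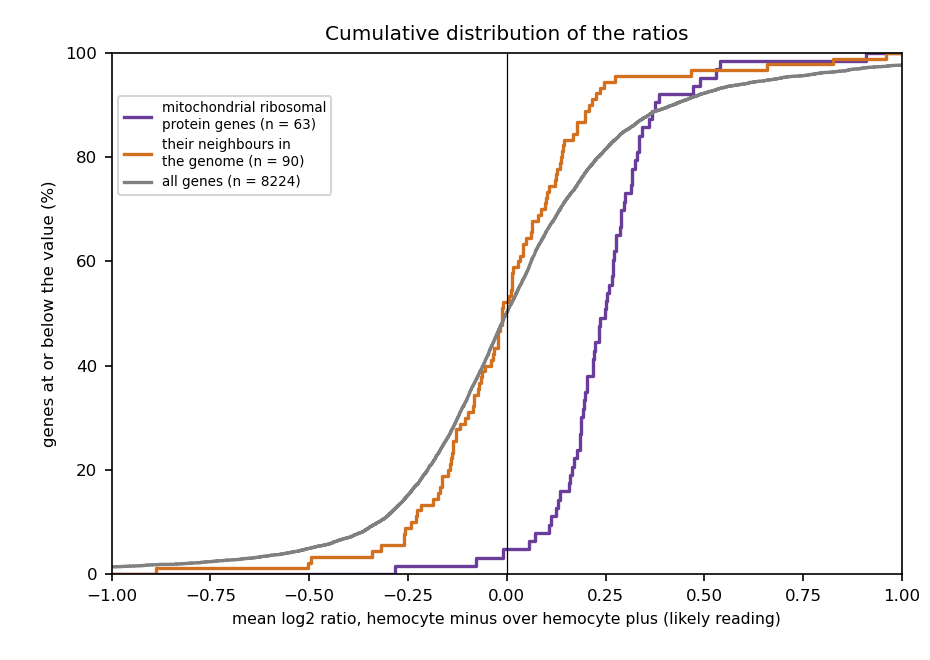
The cumulative plot gives, for each mean log2 ratio between -1 and 1 (x axis), the percentage of genes at or below it (y axis) for the 63 members (purple), their 90 measured neighbours (orange) and all 8224 genes (grey). The members' curve rises steeply around its median of 0.25, while the neighbours' curve crosses the middle near 0, as does that of all genes.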

How the data were processed

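Per the labels' protocols, total RNA was extracted with Trizol and RNeasy and labelled with Cy3 and Cy5 by amino-allyl reverse transcription. Each probe has a single value on each array as deposited, always below 0, with medians of -0.989 (array A) and -1.021 (array B). Their sizes look like linear ratios of the dyes, with the sign turned. The sources used here name no scanner, background correction or normalization, and without channel intensities the signal over background is unknown. Precision is limited by the number of arrays.

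Sizes were converted to log2, array B was turned by its labelled dyes (r = -0.69 between arrays before turning), and the median over all 12144 probes was subtracted per array. Probes with 1 annotated symbol (9917, of which 9746 were found in the RefSeq gene table of Release 6) and values on both arrays were averaged per gene. limma 3.58.1 in R 4.3.3 (lmFit, eBayes, intercept only) had 1 residual and 5.01 prior degrees of freedom, and the script was tested on simulated data. The members, gene lists and alternatives were chosen with earlier results of these data known. Every member could be named. Members past the test and the 5 highest and 5 lowest of each subunit are given on both arrays, and from other lists the highest and lowest genes.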

Additional observations from a re-analysis of the deposited data

How the results depend on the processing

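Results were recomputed without centring, with scaled arrays, centred on probes with 1 symbol, with each probe on its own, without re-amplified or otherwise marked probes, with robust moderation and against a 1.2-fold difference. Members past the limma test on the hemocyte minus side numbered 4 in the main setting and 3 to 5 in the others, except 1 against 1.2-fold (mRpS34), where the large subunit had 0 past the test. None passed on the hemocyte plus side in any of these settings. mRpL42 passed without centring (adjusted p = 0.0445) and with robust moderation (adjusted p = 0.0413), and mRpL23 did not with each probe on its own (adjusted p = 0.0521). The difference of the subunit medians, 0.011, was -0.014 with each probe on its own and 0.0009 to 0.0052 on single arrays. The members' median was 0.21 on array A alone and 0.32 on array B alone, and no single array allows a test. Each array holds both RNAs, so every fit already compares them within an array. No paired analysis with a further replicate block was possible because the labels give a single group of 2 arrays. No member could be compared with its signal over background, and a difference of the members' typical size, 1.19-fold, was below the smallest called with 2 arrays, 1.36-fold.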
